A study of Mus musculus with 16 samples.

Results

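The comparison set cultures of mouse spermatogonial stem cells in which Etv5 had been knocked down against cultures in which Bcl6b had been knocked down. It used 7 of the 16 arrays of the series, the 4 labelled Etv5 knockdown and replicates 2 to 4 of those labelled Bcl6b knockdown. Bcl6b knockdown replicate 1 has a strong 3' bias and entered as a check alone. Every culture was of C57BL/6 background, had been started from Thy1+ germ cells and was kept in serum-free medium that held 20 ng/ml of GDNF, 150 ng/ml of GFRA1 and 1 ng/ml of FGF2. RNA was taken after 30 h with short interfering RNA (siRNA), so all groups, the Negative control group included, shared a transfection and the same growth factors. The 4 Negative control arrays and the 4 Pou3f1 knockdown arrays served to place the levels of both knockdowns. The knockdowns were transient and left part of each target's signal in place, and siRNA sequences are not given in the sources used here.

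Etv5, an ETS family activator, and Bcl6b, a BTB zinc finger repressor, are transcription factors that GDNF induces in spermatogonial stem cells, and both are known as supports of their self-renewal. GDNF acts through the receptor tyrosine kinase RET and its co-receptor GFRA1, and FGF2 acts through its own receptor kinases and the MAP kinase cascade. Bcl6b is itself known to depend on Etv5. Because the signal of Bcl6b was about equally low after either siRNA, a gene that separated the groups did so at a like level of Bcl6b message.

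Etv5 intensity was 912, 912, 1676 and 898 on the 4 Etv5 knockdown arrays and 3270, 3424 and 3175 on the 3 Bcl6b knockdown arrays. The groups did not overlap, and Etv5 knockdown replicate 3 kept the highest signal of its group. On the control arrays it was 2882 to 3072. The log2 difference between the knockdowns, Etv5 minus Bcl6b, was -1.64 ± 0.15 (SE, n = 4 and 3; adjusted p 4.46e-06 in limma), and 2 further, dimmer probe sets of this gene gave -1.87 and -1.84. Bcl6b knockdown replicate 1 read 1658, and with it the difference was -1.39 (adjusted p 0.00332). Bcl6b intensity was 620, 618, 899 and 608 after Etv5 siRNA and 611, 718 and 791 after its own siRNA, so these groups overlapped. The difference was -0.05 ± 0.11 with an adjusted p of 0.874, while control arrays read 1341 to 1526. Pou3f1, the target of the remaining siRNA, differed by 0.00 ± 0.09 (adjusted p 0.988).

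Among 11163 genes bright enough to be tested, 505 (4.52%) were called at an adjusted p under 0.05. Of these, 326 (2.92%) were higher and 179 (1.6%) lower in Etv5 knockdown than in Bcl6b knockdown. Most differences were small: the median size among called genes was 0.30 on the log2 scale, and 8 called genes differed by 2-fold or more. The arrays did not overlap in 486 of the 505 called genes, against 1687 (15.1%) of all tested genes. The count rests on few arrays. It was 259 without Bcl6b knockdown replicate 2, 304 without replicate 3, 325 without replicate 4 and 301 without Etv5 knockdown replicate 1, and it was 166 (1.48%; 0.903% higher and 0.581% lower) with Bcl6b knockdown replicate 1 added, 165 of them among the 505. Separate cultures are not stated for the replicates of a group, and the spread behind each p-value may therefore be technical.

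Replicate 1 of Bcl6b knockdown had a log2 3' minus 5' signal of 1.03 for Gapdh and 3.08 for Actb, where the other 15 arrays lay between -0.53 and -0.45 and between 0.62 and 0.76. The Etv5 knockdown arrays (0.65 to 0.73 for Actb) and the 3 Bcl6b knockdown arrays (0.66 to 0.72) had overlapping ranges. Germ cell genes that define the labelled cell type were measured in both groups: the RNA helicase gene Ddx4 had a mean intensity of 6959 in Etv5 and 7423 in Bcl6b knockdown, and the RNA-binding protein gene Dazl 15526 and 15585. Zbtb16, Gfra1 and Sall4, genes of undifferentiated spermatogonia, also did not pass the test (0.14, -0.19 and -0.14). Id4 and Ret, which belong to the same set of germ cell markers, were called lower in Etv5 than in Bcl6b knockdown, with values given below. All 22 measured genes of a fibroblast and feeder cell list were bright enough to be tested too, although the labels name no feeder cells. In such bulk samples fewer cells of a type and less RNA per cell cannot be told apart.

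**Figure D1:**
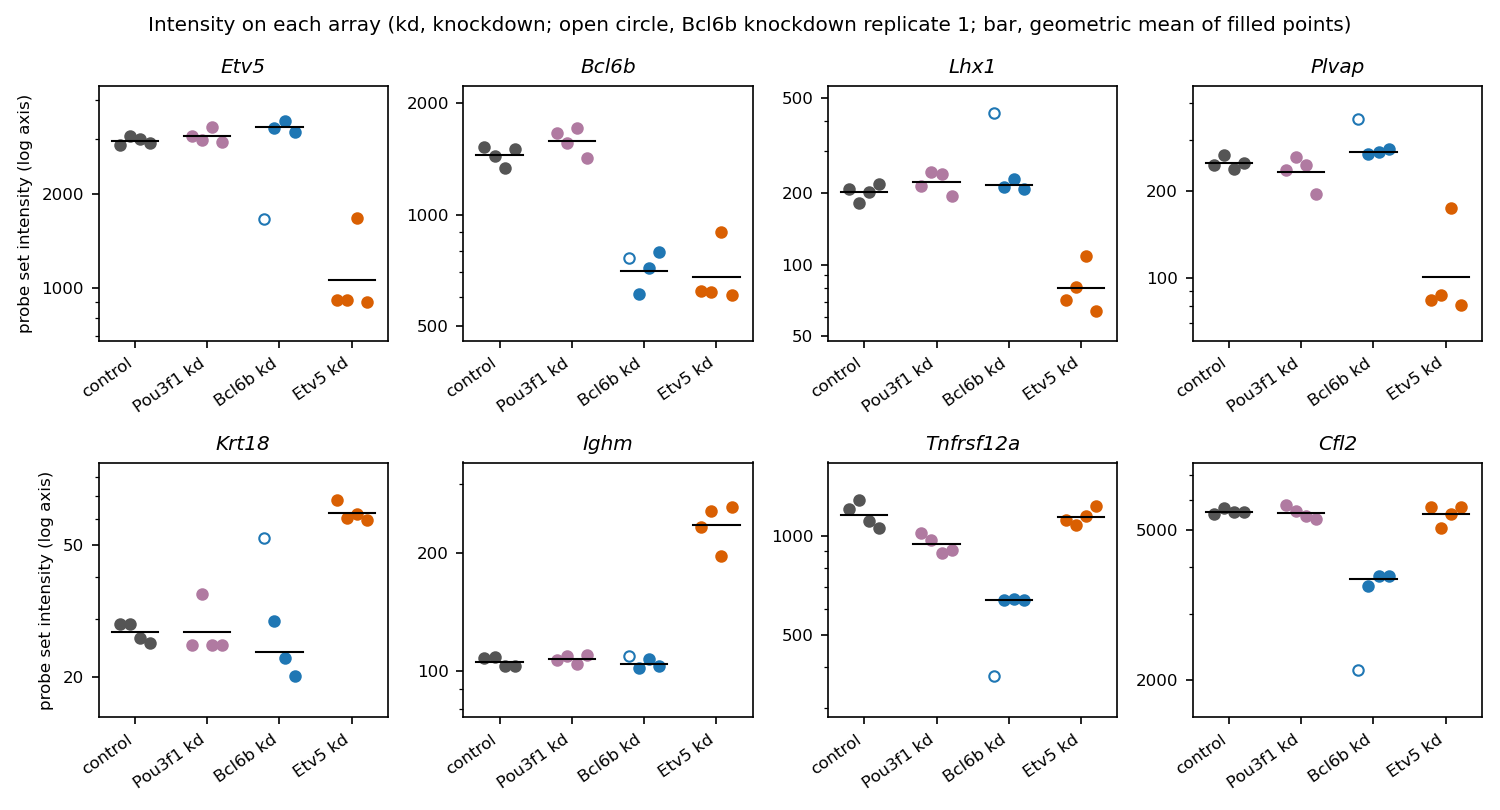
Probe set intensity (log axis) of 8 genes on every array, by group; filled points are the arrays used, the open circle is Bcl6b knockdown replicate 1, and each bar is the geometric mean of the filled points. Bcl6b is low after both siRNAs, Etv5, Lhx1 and Plvap are low and Krt18 and Ighm high in Etv5 knockdown, and Tnfrsf12a and Cfl2 are low in Bcl6b knockdown.

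A called difference can lie on either side. To describe this, the control mean of each called gene was placed on a scale that runs from 0 at its Bcl6b knockdown mean to 1 at its Etv5 knockdown mean, in log2. For 137 genes the control lay at the level of Bcl6b knockdown (between -0.25 and 0.25), so that Etv5 knockdown was the group set apart; 78 of these were lower in Etv5 knockdown and 59 higher. For 138 genes the control lay at the level of Etv5 knockdown (between 0.75 and 1.25), so that Bcl6b knockdown was set apart; 112 of these were lower in Bcl6b knockdown, and 26 were higher there. In 147 genes the control lay between the knockdowns, in 51 it lay beyond Etv5 knockdown and in 32 beyond Bcl6b knockdown. Of the genes lower in Etv5 knockdown 43.6% had the control at the Bcl6b knockdown level and 14.5% at the Etv5 knockdown level, and of those higher in Etv5 knockdown these were 18.1% and 34.4%.

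The Pou3f1 knockdown arrays, in which neither Etv5 nor Bcl6b was low, gave a like picture. Of the lower genes, 44.7% had Pou3f1 knockdown at the Bcl6b knockdown level and 15.1% at the Etv5 knockdown level. Of the higher genes, 12.6% had it at the Bcl6b knockdown level, 43.6% between and 39.0% at the Etv5 knockdown level. These classes describe group means and were not tested. Over all tested genes, 1069 (9.58%) were called in Etv5 knockdown against control, 4.59% higher and 4.99% lower, and 1219 (10.9%) in Bcl6b knockdown against control, 4.08% higher and 6.84% lower. Under median centring most calls were higher instead, 683 higher and 445 lower in Etv5 knockdown and 640 and 472 in Bcl6b knockdown. These totals rest on few arrays too: without control replicate 1 the first was 702, and without Bcl6b knockdown replicate 2 the second was 539. With Bcl6b knockdown replicate 1 they were 231 and 358. That array is in neither group of the first comparison but enters the spread that all groups share in the fit. The median residual SD was 0.084 without it and 0.134 with it. Both comparisons use the same control arrays, so their values for a gene are given side by side.

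**Figure D2:**
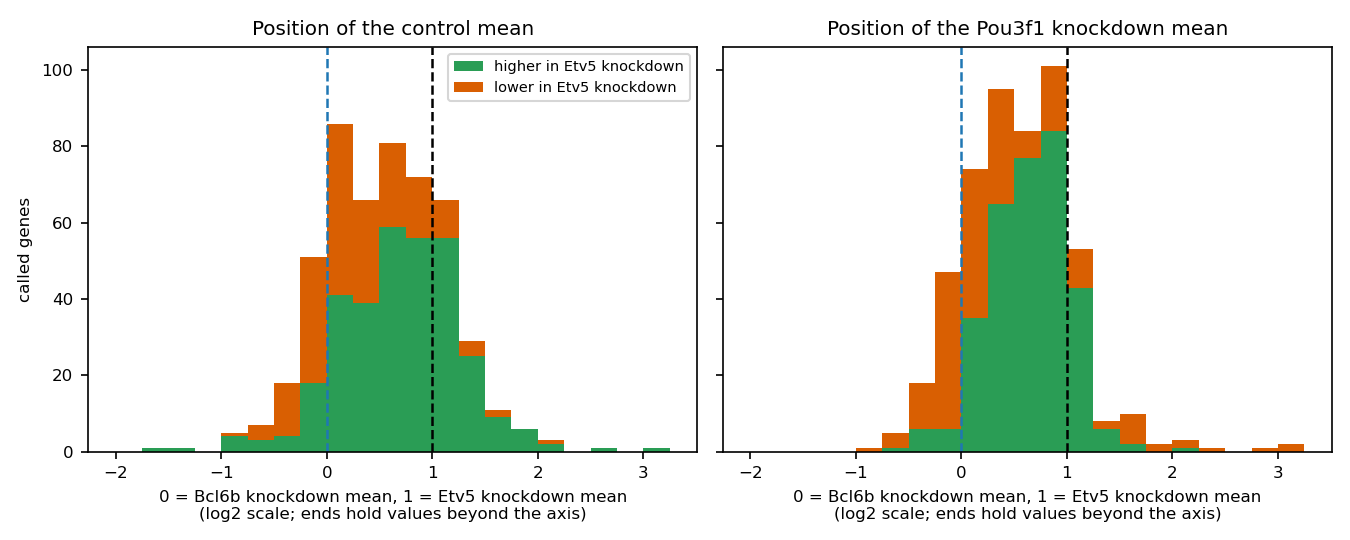
Number of the 505 called genes (vertical axis) by the position of the control mean (left) and of the Pou3f1 knockdown mean (right) on a log2 scale where 0 is the Bcl6b knockdown mean and 1 the Etv5 knockdown mean; colours give the direction of the difference. Genes lower in Etv5 knockdown pile up near 0, and genes higher in Etv5 knockdown spread from 0 to beyond 1.

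Promoters are shown for 4 genes as examples: Lhx1 and Mrc1, low in Etv5 knockdown, Sohlh1, high in Etv5 knockdown, and Tnfrsf12a, low in Bcl6b knockdown. Each run is the 300 bases from 250 before to 50 after the start of the RefSeq gene on GRCm38.p6, read 5′ to 3′ on the gene's strand, and capitals mark CCGGAA and AGGAAG on either strand, both of which hold the GGAA core that ETS factors such as Etv5 bind. Lhx1 lies at chr11:84525485-84525784 on the minus strand, Mrc1 at chr2:14229164-14229463 on the plus strand, Sohlh1 at chr2:25847199-25847498 on the minus strand and Tnfrsf12a at chr17:23677400-23677699 on the minus strand.
Lhx1: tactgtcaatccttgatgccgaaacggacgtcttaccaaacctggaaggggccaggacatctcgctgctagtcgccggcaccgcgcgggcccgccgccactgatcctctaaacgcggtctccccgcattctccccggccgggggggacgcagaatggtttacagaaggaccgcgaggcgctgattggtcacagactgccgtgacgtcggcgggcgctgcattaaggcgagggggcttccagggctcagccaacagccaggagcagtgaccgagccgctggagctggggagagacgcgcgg
Mrc1: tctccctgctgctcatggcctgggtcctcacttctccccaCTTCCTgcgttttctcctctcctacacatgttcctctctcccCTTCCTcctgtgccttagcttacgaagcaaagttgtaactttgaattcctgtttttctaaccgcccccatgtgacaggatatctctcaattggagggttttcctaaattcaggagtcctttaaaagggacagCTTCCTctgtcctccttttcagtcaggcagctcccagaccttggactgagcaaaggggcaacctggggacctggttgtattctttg
Sohlh1: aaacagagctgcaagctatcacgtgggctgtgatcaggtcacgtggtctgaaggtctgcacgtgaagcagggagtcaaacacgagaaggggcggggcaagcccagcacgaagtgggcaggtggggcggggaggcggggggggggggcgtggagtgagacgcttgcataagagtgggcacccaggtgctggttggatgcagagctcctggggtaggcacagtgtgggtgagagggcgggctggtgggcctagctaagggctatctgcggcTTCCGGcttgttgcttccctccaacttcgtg
Tnfrsf12a: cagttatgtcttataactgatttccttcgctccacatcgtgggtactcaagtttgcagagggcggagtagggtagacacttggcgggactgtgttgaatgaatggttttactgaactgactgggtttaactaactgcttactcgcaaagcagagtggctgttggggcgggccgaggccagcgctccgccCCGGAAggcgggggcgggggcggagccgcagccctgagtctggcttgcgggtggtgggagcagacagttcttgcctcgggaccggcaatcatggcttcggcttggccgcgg
The Lhx1 window holds neither run of letters, although the bare core GGAA occurs in it. That of Mrc1 holds AGGAAG 3 times, and those of Sohlh1 and Tnfrsf12a hold CCGGAA 1 time each. Among promoters searched but not shown, those of Cxcr4, Cfl2 and Gamt hold neither run, and that of Dusp6 holds AGGAAG 1 time.

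Over 32851 promoters of the table, 14.9% hold CCGGAA and 35.4% AGGAAG on either strand, and over those of the tested genes these shares are 27.6% and 32.2%. Promoters matched for 131 of the 179 genes lower in Etv5 knockdown held CCGGAA in 22.4% and AGGAAG in 37.2%. Those matched for 258 of the 326 higher genes held them in 19.3% and 27.1%. Of the promoters of lower genes with the control at the Bcl6b knockdown level, 20.7% held CCGGAA and 35.4% AGGAAG. The letters TTCNNNGAA, the core that BCL6 family proteins share with STAT factors, stood in 6.46% of promoters of tested genes, 6.01% of those of lower and 6.92% of those of higher genes. A match is a run of letters and was not tested as a site.

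Several transcription factors that GDNF induces and markers of stem cell-rich spermatogonia were lower in Etv5 knockdown. Of 21 tested stem cell maintenance regulators, 7 were lower and 3 higher (47.6% called, against 4.52% of all tested genes). Etv5, the siRNA target, whose fall the design fixed, was 1 of the 7. With Bcl6b knockdown replicate 1 the count was 1 higher and 5 lower. The list's median difference was -0.09, against 0.02 over all tested genes. Lhx1, which encodes a LIM homeobox factor induced by GDNF, read 70.9, 80.7, 109 and 63.8 in Etv5 knockdown and 211, 228 and 207 in Bcl6b knockdown. Every Etv5 knockdown array lay under every Bcl6b knockdown array, and replicate 3 again read highest among the former. The log2 difference was -1.43 ± 0.13 (adjusted p 6.21e-06), and a dimmer probe set differed by -1.18. Against control Lhx1 was -1.33 in Etv5 and 0.10 in Bcl6b knockdown, 2 comparisons that share the control arrays.

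Cxcr4, the receptor of the niche chemokine CXCL12, read 52.3, 100, 108 and 91.0 in Etv5 knockdown and 168, 144 and 168 in Bcl6b knockdown. Its difference was -0.91 ± 0.18 (adjusted p 0.00721), with replicate 1 of Etv5 knockdown lowest by a wide gap. The T-box factor gene Eomes (-0.47) and Shisa6 (-0.69), which mark a small subset of undifferentiated spermatogonia, were lower too; Shisa6 read at most 15.6 in Etv5 knockdown, under the median of each array, and 16.9 to 25.1 in Bcl6b knockdown, and its call was lost without Bcl6b knockdown replicate 3. Id4, an inhibitor of basic helix-loop-helix factors that marks stem cells, read 940 to 1179 against 1340 to 1484 (-0.44 ± 0.07, adjusted p 0.00114). With Bcl6b knockdown replicate 1, which read 901 for Id4, neither Id4 nor Eomes was called. For Lhx1, Cxcr4, Eomes, Shisa6 and Id4 the control mean lay at the Bcl6b knockdown level.

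Ret, the GDNF receptor kinase gene, differed from these in where the control lay. It read 647 to 751 in Etv5 knockdown and 855 to 883 in Bcl6b knockdown (-0.31 ± 0.05, adjusted p 0.00142), and the control arrays read 691 to 727. Ret was thus at the control level in Etv5 knockdown (-0.01) and above it in Bcl6b knockdown (0.30, adjusted p 0.00102), and it read 870 to 958 in Pou3f1 knockdown. The 3 maintenance regulators that were higher in Etv5 knockdown were Sox3 (0.65), Lin28a (0.28) and Mycn (0.22). The Mycn call was lost without Bcl6b knockdown replicate 2, 3 or 4 or without Etv5 knockdown replicate 1 or 3, and those of Mycn and Lin28a were lost with Bcl6b knockdown replicate 1.

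Of 16 tested GDNF-responsive genes, 6 were lower, Etv5 again among them, and 3 higher (56.25% called, against 4.52% of all tested genes). The median was -0.15, and with Bcl6b knockdown replicate 1 the count was 0 higher and 5 lower. Besides Etv5, Lhx1 and Cxcr4, the lower ones were the neurofilament gene Nefm, the Tec kinase gene Tec (-0.47, adjusted p 0.0423) and the zinc finger gene Egr2. Nefm read 2992, 2991, 4102 and 2923 in Etv5 knockdown and 4350, 4886 and 4769 in Bcl6b knockdown, a difference of -0.53 ± 0.09 (adjusted p 0.00141). Egr2 read 1524 to 1839 against 2140 to 2534 (-0.46 ± 0.07, adjusted p 4.64e-04). Its paralogue Egr1, an immediate early gene, went the other way at 0.30 ± 0.06 (3430 to 3667 against 2604 to 3068, adjusted p 0.0102), as did Fos at 0.23. Against control, Egr1 was 0.10 in Etv5 and -0.19 in Bcl6b knockdown, and neither passed the test. With Bcl6b knockdown replicate 1 Tec, Egr1 and Fos were not called.

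Genes of FGF and MAP kinase feedback went both ways, and the lower ones were feedback inhibitors. Of 20 tested genes of this list 3 were lower and 3 higher (30%, against 4.52% of all tested genes), with a median of -0.07. With Bcl6b knockdown replicate 1 the count was 2 higher and 1 lower. The ERK phosphatase gene Dusp6 read 957, 1113, 1506 and 1025 in Etv5 knockdown and 1470, 1826 and 1776 in Bcl6b knockdown, so replicate 3 of the former overlapped with replicate 2 of the latter. The difference was -0.57 ± 0.12 (adjusted p 0.00753), and it was lost without Bcl6b knockdown replicate 3 and with replicate 1 (-0.46, adjusted p 0.129). Spry4, a Sprouty inhibitor of receptor kinase signalling, read 242 to 327 against 336 to 398 (-0.46 ± 0.09, adjusted p 0.00795; lost without Bcl6b knockdown replicate 4). Dusp5, a nuclear ERK phosphatase gene, differed by -0.32 (adjusted p 0.0311); its call was lost with Bcl6b knockdown replicate 1, without replicate 3 or 4 of that group, and without Etv5 knockdown replicate 1, 2 or 4.

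The higher members of the same list were Ccnd1, Egr1 and Fosl1, and for Ccnd1 and Fosl1 the control lay beyond Etv5 knockdown. The cyclin D1 gene Ccnd1 read 4346 to 4581 in Etv5 knockdown, 3812 to 4051 in Bcl6b knockdown and 5482 to 5996 in control. It had therefore fallen after both siRNAs, by 0.34 after that of Etv5 and by 0.54 after that of Bcl6b, and the gap of 0.20 ± 0.04 between them was called (adjusted p 0.00432). Fosl1, an AP-1 subunit gene, was 0.31 higher than in Bcl6b knockdown, where it had fallen by 0.45 against control (adjusted p 4.68e-04). Its call was lost without Bcl6b knockdown replicate 3 or 4.

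Outside the regulator lists, several of the lowest genes in Etv5 knockdown encode surface proteins better known from endothelial cells and macrophages. Plvap, a protein of endothelial fenestrae, read 83.6, 87.2, 174 and 80.8 in Etv5 knockdown and 267, 272 and 278 in Bcl6b knockdown. The 3 Bcl6b knockdown arrays lay close together, and replicate 3 of Etv5 knockdown read between the other arrays of its group and them. The difference was -1.43 ± 0.18 (adjusted p 1.42e-04). Mrc1, the mannose receptor gene of macrophages, read 27.9, 22.6, 45.3 and 40.1 against 88.0, 94.6 and 77.6 (-1.37 ± 0.20, adjusted p 4.9e-04). Ramp2, a chaperone of adrenomedullin receptors, read 17.5 to 27.4 against 45.6 to 58.8 (-1.23 ± 0.13, adjusted p 3.19e-05). Cd93, an endothelial and myeloid surface receptor gene, read 82.8 to 138 against 167 to 205 (-0.89 ± 0.13, adjusted p 4.03e-04). In each of these genes no arrays overlapped, the control arrays read as the Bcl6b knockdown arrays did (Bcl6b knockdown differed from control by 0.01 to 0.14), and the call also passed with Bcl6b knockdown replicate 1.

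The defining markers of those cell types were near the floor of the signal. Of 18 endothelial markers, 12 lay under the median of every array, among them Pecam1 (at most 7.32), Cdh5 (at most 5.23), Kdr (at most 4.85) and Tek (at most 10.5), where array medians were 15.8 to 17.3. Of the 6 tested, 2 were lower (Plvap and Ramp2) and 1 was higher (50% called, against 4.52% of all tested genes). The higher one was the ETS factor gene Erg, which read 255 to 345 in Etv5 knockdown and 193 to 217 in Bcl6b knockdown (0.50 ± 0.10, adjusted p 0.00524). The summed intensity of all 18 was 2187 to 2388 in Etv5 knockdown, 2394 to 2517 in Bcl6b knockdown and 2558 to 2736 in control, and most of it was that of Cd34, which did not pass the test (-0.04). Of 14 macrophage and leukocyte markers, 6 lay under the median of every array, among them Adgre1 (at most 5.70) and Itgam (at most 5.22). Of the 8 tested (25% called), Mrc1 was lower and the lysosomal gene Cd68 higher (0.60, adjusted p 0.0454). The Cd68 call was lost with Bcl6b knockdown replicate 1 and without any array of that group or Etv5 knockdown replicate 1 or 4. The summed intensity of all 14 was 754 to 817 in Etv5 knockdown and 759 to 874 in Bcl6b knockdown. With Bcl6b knockdown replicate 1 the endothelial count was again 1 higher and 2 lower, and the macrophage count 0 higher and 1 lower.

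Genes of neural and axonal function went both ways. Of 13 tested members of that list, 4 were lower and 2 higher (46.2% called, against 4.52% of all tested genes). The counts were also 4 and 2 with Bcl6b knockdown replicate 1. The higher ones were Ank2 (0.66) and Sox3 (0.65). The median was 0.03, with 7 differences above 0 and 6 under it. Crmp1, a collapsin response mediator of axon guidance, read 56.8, 40.2, 63.1 and 40.7 in Etv5 knockdown and 89.1, 105 and 103 in Bcl6b knockdown (-0.99 ± 0.15, adjusted p 9.17e-04). Sema7a, a membrane-anchored semaphorin gene, read 60.4 to 73.0 against 98.1 to 110 (-0.63 ± 0.11, adjusted p 0.00168). It had fallen after both siRNAs, by 1.04 in Etv5 and by 0.40 in Bcl6b knockdown against control (129 to 157). Sgip1, an endocytic adaptor gene of neurons, showed the Bcl6b side instead: 3 Etv5 knockdown arrays read 8.59 to 10.5 like the control (8.78 to 14.3), Etv5 knockdown replicate 2 read 25.6, and the Bcl6b knockdown arrays read 22.4 to 27.5. Its groups overlapped, and its call (-0.95, adjusted p 0.0339) was lost when any array but Etv5 knockdown replicate 2 was left out.

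Other large falls with the control at the Bcl6b knockdown level were those of Tmem132e, a transmembrane protein gene (54.8 to 68.2 against 115 to 120; -0.94 ± 0.09, adjusted p 8.42e-06), and Hs3st3b1, a heparan sulfate sulfotransferase gene (125 to 197 against 272 to 290; -0.93 ± 0.12, adjusted p 1.34e-04). Cyp2u1, a cytochrome P450 gene, read 13.7 to 27.7 against 33.7 to 44.5 (1.99-fold lower, adjusted p 0.00845; lost without Bcl6b knockdown replicate 4). The p38 kinase genes Mapk12 (-0.59) and Mapk11 (-0.61), chosen after their values were seen, were lower as well, the latter with the control mean between the knockdowns. The death receptor gene Tnfrsf25, whose control mean lay beyond Bcl6b knockdown, read 22.1 to 52.5 against 53.1 to 76.5 and 59.1 to 93.4 in control. Its difference of -0.87 ± 0.21 (adjusted p 0.0224) was lost without Bcl6b knockdown replicate 3 or 4 or Etv5 knockdown replicate 1 or 4.

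**Figure D3:**
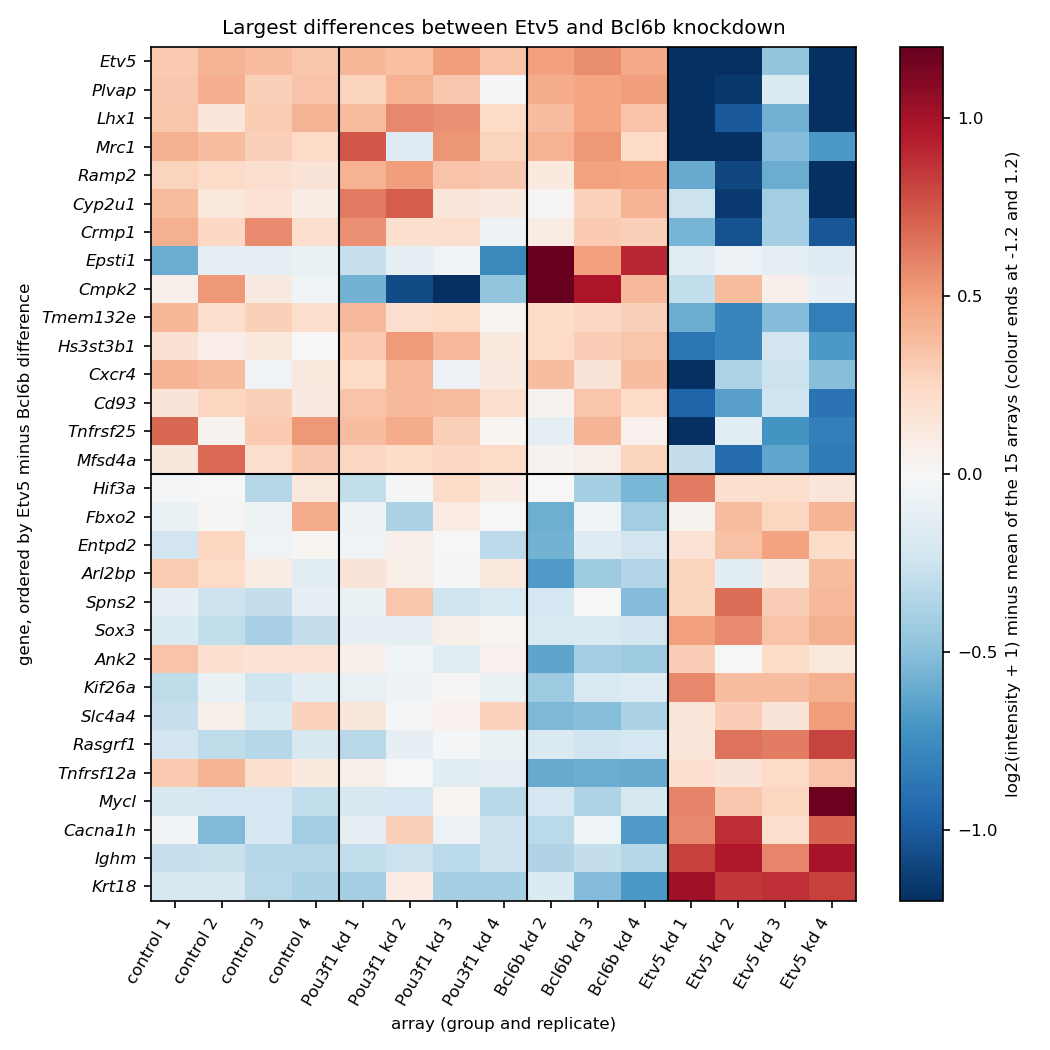
Deviation of log2(intensity + 1) from the mean of the 15 arrays (colour) for the 15 largest called differences in each direction with groups that do not overlap; rows are genes and columns arrays by group. In most of the upper rows the Etv5 knockdown columns are the blue ones and replicate 3 is the palest in Etv5, Plvap, Lhx1 and Hs3st3b1; in Tnfrsf12a, Ank2 and Arl2bp the Bcl6b knockdown columns are the ones set apart.

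The largest rise in Etv5 knockdown was that of Krt18, a keratin of simple epithelia. It read 68.2, 60.5, 61.8 and 59.5 in Etv5 knockdown and 29.5, 22.9 and 20.2 in Bcl6b knockdown, with control at 25.3 to 29.0. All Etv5 knockdown arrays lay above all others used. The log2 difference was 1.35 ± 0.13 (adjusted p 7.97e-06), and with Bcl6b knockdown replicate 1, which read 52.6, it was 1.07 (adjusted p 0.0181). Other epithelial genes did not rise with it. Of 6 tested members of the epithelial list 50% were called, against 4.52% of all tested genes. Besides Krt18 these were the tight junction gene Ocln (-0.58) and the splicing regulator gene Esrp1 (-0.39), both lower, and the median was -0.21. Ocln lost its call with Bcl6b knockdown replicate 1, which read 92.8 where the other 3 read 315 to 350, and the list then had 1 member higher and 1 lower.

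Ighm, the immunoglobulin mu heavy chain gene, read 232, 256, 197 and 261 in Etv5 knockdown, and every other array of the series, Bcl6b knockdown replicate 1 included, read between 102 and 110. The difference was 1.17 ± 0.08 (adjusted p 4.87e-07). A dimmer probe set of this gene differed by 0.96 (adjusted p 2.1e-05), another, at about 50, by 0.06, and the rest read at most about 8. Cacna1h, a T-type calcium channel gene, read 75.6 to 122 against 40.6 to 63.3 (0.94 ± 0.17, adjusted p 0.00237). Mycl, a Myc family gene, read 15.9 to 30.9 against 9.92 to 11.4 (0.84 ± 0.16), and Rasgrf1, a Ras exchange factor gene, 17.2 to 27.8 against 12.9 to 13.7 (0.76 ± 0.13). Both lay under the array medians on all arrays used outside Etv5 knockdown and were bright enough to be tested through that group alone, so they are given as values and their calls support nothing.

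Genes of spermatogonial differentiation were higher in Etv5 knockdown where they differed. Of 16 tested, 4 were higher and 0 lower (25% called, against 4.52% of all tested genes). The median was 0.11, and with Bcl6b knockdown replicate 1 the count was 1 higher. Sohlh1, a helix-loop-helix factor that drives differentiation, read 843, 725, 767 and 818 in Etv5 knockdown and 487, 539 and 555 in Bcl6b knockdown. The groups did not overlap, and control (481 to 533) and Pou3f1 knockdown (508 to 599) read as Bcl6b knockdown did. The difference was 0.58 ± 0.07 (adjusted p 7.15e-05), and the call passed under every array left out and with Bcl6b knockdown replicate 1 (0.49, adjusted p 0.00922).

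The other members moved less. Stra8, a gene that retinoic acid induces, read 773 to 932 against 616 to 689 (0.34 ± 0.08, adjusted p 0.0140). Dnmt3b, a de novo DNA methyltransferase gene, differed by 0.19 (adjusted p 0.0462) and Dmrt1, a regulator of the switch to meiosis, by 0.14 (adjusted p 0.0423). The calls of Stra8, Dnmt3b and Dmrt1 were lost with Bcl6b knockdown replicate 1 and without replicate 2, and those of Dnmt3b and Dmrt1 without several other single arrays and under median centring. Kit, the stem cell factor receptor gene of differentiating spermatogonia, differed by 0.02 (adjusted p 0.939). Among 15 tested genes of germ cell identity and the piRNA pathway, Piwil2 (0.15) and Tdrd5 (0.21) were higher and 0 lower (13.3% called), with a median of 0.11. Neither call held with Bcl6b knockdown replicate 1 or without any of the other 3 arrays of that group. Of 16 meiosis genes Stra8 alone was called (6.25%, against 4.52% of all tested genes).

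Sox3, a SoxB1 factor gene of undifferentiated spermatogonia and neural progenitors, read 297, 312, 267 and 283 in Etv5 knockdown and 185, 184 and 181 in Bcl6b knockdown. It did not overlap, differed by 0.65 ± 0.07 (adjusted p 3.19e-05) and read 160 to 188 in control. Of 13 tested pluripotency and Myc family genes 3 were higher and 0 lower (23.1%, against 4.52% of all tested genes), with a median of 0.14. These were Lin28a, Mycn and Mycl, and Mycl was tested only through the group where it is high. With Bcl6b knockdown replicate 1 the count was 1. The hypoxia-responsive gene Ndrg1 was the member called of 22 glycolysis and hypoxia genes (4.55%, against 4.52% of all tested genes). Ndrg1 differed by 0.32 (adjusted p 8.64e-04), and its call was lost with Bcl6b knockdown replicate 1. Of 21 S phase genes, 21 genes of G2 and M phase and 18 sterol synthesis genes, 0 were called, and their medians were -0.05, -0.03 and 0.07.

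**Figure D4:**
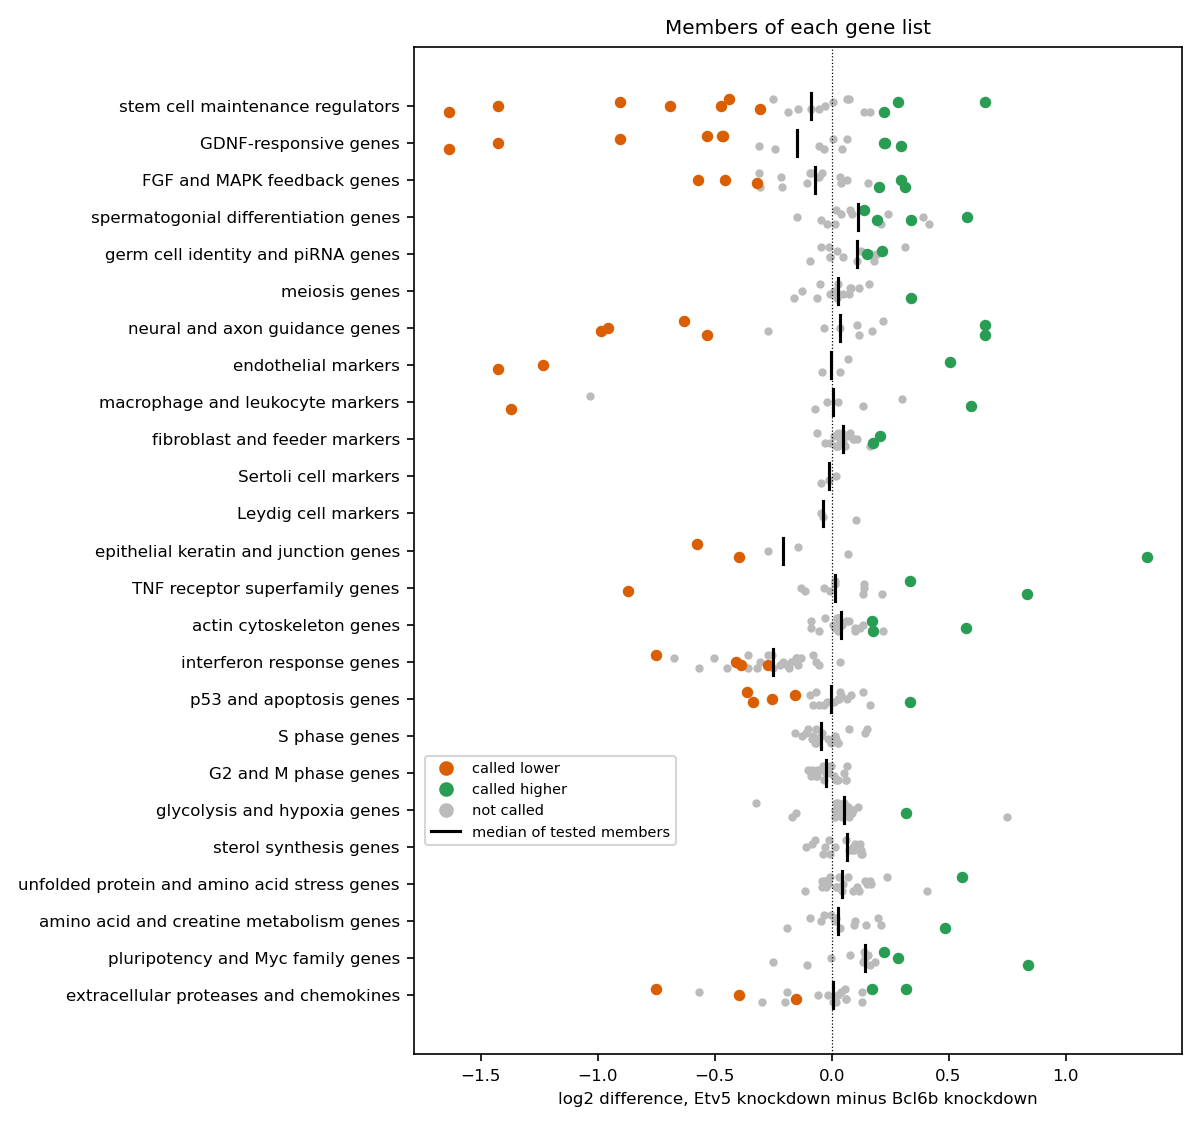
Log2 difference of Etv5 minus Bcl6b knockdown (horizontal axis) of each tested member of the 25 gene lists; coloured points passed the test, grey points did not, and the bar is the median. Called members of the stem cell maintenance and GDNF lists lie mostly to the left, those of the differentiation list to the right, and 27 of the 28 interferon genes lie left of 0.

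On the Bcl6b side stood Tnfrsf12a, the receptor of the TNF family ligand TWEAK. It read 1117, 1083, 1150 and 1237 in Etv5 knockdown and 638, 646 and 640 in Bcl6b knockdown. Control read 1057 to 1290, so the Etv5 knockdown arrays lay among the control arrays, and Pou3f1 knockdown read 891 to 1025. The difference between the knockdowns was 0.84 ± 0.07 (adjusted p 8.25e-07), and against control it was -0.86 (adjusted p 1.31e-07) in Bcl6b and -0.02 (adjusted p 0.853) in Etv5 knockdown. A second probe set differed by 0.82. Bcl6b knockdown replicate 1 read lower still, at 375. Of 13 tested TNF receptor superfamily genes 23.1% were called, against 4.52% of all tested genes. Tnfrsf12a and the ectodysplasin receptor gene Eda2r were the 2 higher and Tnfrsf25 the 1 lower, with a median of 0.01. With Bcl6b knockdown replicate 1 the counts were the same. Eda2r read 1592 to 1800 in Etv5 knockdown, 1340 to 1394 in Bcl6b knockdown and 1942 to 2033 in control, a fall after both siRNAs that was larger after that of Bcl6b by 0.34 ± 0.06 (adjusted p 0.00141).

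Cfl2, a cofilin gene of actin filament turnover, read 5750, 5072, 5518 and 5779 in Etv5 knockdown and 3554, 3780 and 3781 in Bcl6b knockdown, with 5510 to 5710 in control. The difference was 0.58 ± 0.04 (adjusted p 6.74e-07). A dimmer probe set of Cfl2 differed by 0.55, and another, at about 64, by -0.02. Of 23 tested actin cytoskeleton genes 3 were higher and 0 lower (13.0%, against 4.52% of all tested genes), with a median of 0.04. These were Cfl2, the tropomyosin gene Tpm1 (0.18) and the filamin gene Flna (0.17). With Bcl6b knockdown replicate 1 Cfl2 alone was called. The Tpm1 difference came from the Etv5 side, 0.18 against control and 0.00 in Bcl6b knockdown. Flna lost its call without Bcl6b knockdown replicate 2 or 3, without Etv5 knockdown replicate 1 or 4, and under median centring.

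Impact, an inhibitor of the GCN2 amino acid sensor, read 2867 to 3295 in Etv5 knockdown and 1974 to 2277 in Bcl6b knockdown, with 2994 to 3231 in control (0.56 ± 0.05, adjusted p 4.75e-06). It was the member called of 25 unfolded protein and amino acid stress genes (4.0%, against 4.52% of all tested genes). Ank2, an ankyrin gene of the membrane skeleton, read 245 to 301 against 158 to 185 (0.66 ± 0.08, adjusted p 1.01e-04). Gamt, the enzyme of the last step of creatine synthesis, read 189 to 221 against 135 to 158 (0.48 ± 0.08, adjusted p 0.00203). Of 14 amino acid and creatine metabolism genes Gamt was the member called (7.1%). Against control Impact, Ank2 and Gamt were -0.57, -0.71 and -0.67 in Bcl6b knockdown, all called, and -0.01, -0.06 and -0.18 in Etv5 knockdown, none called. Other genes of this side, chosen after their values were seen, were the small GTPase gene Rab12 (0.58), the mitochondrial kinase gene Pink1 (0.51), the thrombomodulin gene Thbd (0.53) and the endoplasmic reticulum protein gene Wfs1 (0.48). Of these Pink1 was not called with Bcl6b knockdown replicate 1, which read 800 where the other 3 read 411 to 475.

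Of 22 tested fibroblast and feeder markers, 2 were higher in Etv5 knockdown and 0 lower (9.1% called, against 4.52% of all tested genes). These were the collagen cross-linking enzyme gene Lox (0.18 ± 0.04, adjusted p 0.00609) and the caveolin gene Cav1 (0.21 ± 0.04, adjusted p 0.00203), and the median of the list was 0.05. Of the 22 differences 19 were above 0, and the median over all tested genes was above 0 too, at 0.02. As a mean deviation of its genes from their average over the 15 arrays, in log2, the list was at 0.0018 to 0.059 in Etv5 knockdown, -0.030 to -0.025 in Bcl6b knockdown and -0.021 to 0.027 in control, so that the knockdowns did not overlap. The list's summed intensity was 274824 to 287747, 269812 to 276035 and 269189 to 271138 in these groups, overlapping between the knockdowns, while in Etv5 knockdown every array lay above every control array. The part of such cells in other differences was not tested. Both called genes were at the control level in Etv5 knockdown (0.03 and -0.01) and under it in Bcl6b knockdown (-0.14 and -0.22). With Bcl6b knockdown replicate 1, Cav1 alone was called. Of 3 tested Sertoli cell and 3 tested Leydig cell markers 0 were called. Of 21 genes of extracellular proteases and chemokines, 23.8% were called. The protease inhibitor gene Timp3 (0.32) and the chemokine gene Cxcl12 (0.17) were higher and Ccl5, Mmp9 (-0.40) and Mmp3 (-0.15) lower. With Bcl6b knockdown replicate 1 the count was 1 higher and 1 lower. The Mmp9 call was lost without any array but Etv5 knockdown replicate 3, and that of Cxcl12 without Bcl6b knockdown replicate 2.

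Interferon response genes mostly had lower values in Etv5 than in Bcl6b knockdown. Of 28 tested, 27 had a difference under 0, with a median of -0.25, against 0.02 over all tested genes. The test was passed by 4 (14.3%, against 4.52% of all tested genes): Ccl5, Oas2, Oas1b and Ifit2 (2 lower with Bcl6b knockdown replicate 1). Ccl5, a chemokine gene, read 75.2, 78.6, 69.7 and 89.2 in Etv5 knockdown and 138, 133 and 125 in Bcl6b knockdown. Control read 90, 69.2, 73.8 and 71, as Etv5 knockdown did, and Pou3f1 knockdown 14.4 to 24.4. The difference was -0.75 ± 0.14 (adjusted p 0.00273), and against control it was 0.79 in Bcl6b and 0.04 in Etv5 knockdown.

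Oas2 and Oas1b, which interferon induces, differed by -0.41 and -0.39 and had the control at the Etv5 knockdown level. Ifit2, an antiviral effector gene, read 2021 to 2257 in Etv5 knockdown, 2333 to 2786 in Bcl6b knockdown and 1642 to 2015 in control. It was above control after both siRNAs, by 0.28 and 0.55, and the difference was -0.27 ± 0.07 (adjusted p 0.0363). The calls of Oas2, Oas1b and Ifit2 were lost without Bcl6b knockdown replicate 2 or 3, and those of Oas1b and Ifit2 also without Etv5 knockdown replicate 1 or 3. Cmpk2 and Epsti1, which interferon also induces, differed by -0.96 and -0.98. Epsti1 read 20.9 to 34.7 in Bcl6b knockdown and 13.0 to 13.9 in Etv5 knockdown. It was under the array medians outside Bcl6b knockdown and tested through that group alone, and is given as a value. Cmpk2 read 209, 138 and 92.7 in Bcl6b knockdown and up to 91.8 in Etv5 knockdown, and its call was lost without any of 5 single arrays. With Bcl6b knockdown replicate 1 neither Cmpk2 nor Epsti1 was called.

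The list's level varied between arrays of 1 group. As a mean deviation over the 28 genes from their average over the 15 arrays, in log2, it was 0.30 to 0.61 in Bcl6b knockdown, 0.08 to 0.34 in Etv5 knockdown, -0.05 to 0.27 in control and -0.80 to -0.47 in Pou3f1 knockdown. The ranges of the Etv5 and Bcl6b knockdown arrays overlapped.

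Genes of p53 and apoptosis divided by direction. Of 20 tested, 4 were lower and 1 higher (25% called, against 4.52% of all tested genes). The median was -0.004, and the counts were 1 and 1 with Bcl6b knockdown replicate 1. The BH3-only death genes Pmaip1 (-0.36 ± 0.08, adjusted p 0.00943) and Bcl2l11 (-0.33 ± 0.06, adjusted p 0.00141), the p53 targets Zmat3 (-0.26) and Trp53inp1 (-0.16) were lower, and Eda2r was higher. Bcl2l11 read 458 to 501 in Etv5 knockdown and 571 to 653 in Bcl6b knockdown, and the control arrays read 499 to 551, from within the range of Etv5 knockdown to just under that of Bcl6b knockdown. Pmaip1 and Bcl2l11 were not called with Bcl6b knockdown replicate 1, and Pmaip1 not without replicate 2 or 3.

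Where the control lay between the knockdowns, the means of both siRNAs stood on opposite sides of it. Slc4a4, a sodium bicarbonate transporter gene, read 128, 143, 129 and 164 in Etv5 knockdown and 79.2, 81.1 and 88.6 in Bcl6b knockdown, with 95.1 to 140 in control. The difference was 0.75 ± 0.12 (adjusted p 9.17e-04). Against control it was made of 0.31 in Etv5 knockdown (adjusted p 0.0865) and -0.45 in Bcl6b knockdown (adjusted p 0.0219). Dimmer probe sets of Slc4a4 placed the control elsewhere. Against control, a dimmer probe set was 0.62 in Etv5 and -0.15 in Bcl6b knockdown, and another was 0.07 and -0.48. Hif3a, a hypoxia-inducible factor gene, read 299 to 417 against 184 to 269 (0.61 ± 0.15), and Entpd2, an ectonucleotidase gene, 44.2, 50.1, 55 and 45.8 against 26.0 to 35.1 (0.62 ± 0.13). The call of Hif3a was lost without Bcl6b knockdown replicate 3 or 4 or Etv5 knockdown replicate 1, and that of Entpd2 without Bcl6b knockdown replicate 2 and with replicate 1.

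For the 32 genes with the control beyond Bcl6b knockdown, both knockdown means lay on the same side of the control mean, that of Etv5 knockdown further from it. Of these 19 were lower, such as Sema7a, Tnfrsf25 and Tec, and 13 higher. The class rests on means alone: Tnfrsf25 in Bcl6b knockdown did not pass the limma test against control (-0.28, adjusted p 0.429). Camk2n1, an inhibitor of CaM kinase II, read 244 to 284 in Etv5 knockdown, 165 to 213 in Bcl6b knockdown and 94.1 to 140 in control, and Ankrd29 read 72.4 to 76.7, 46.3 to 59.0 and 26.1 to 34.6. Their differences of 0.54 ± 0.12 and 0.51 ± 0.13 were called at adjusted p of 0.0119 and 0.0272 and were lost with Bcl6b knockdown replicate 1. Both genes were chosen after their values were seen.

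Arrays of Etv5 knockdown differed among themselves. Replicate 3 kept the most Etv5 signal, 1676 against 898 to 912, and also the most Bcl6b signal of its group, 899 against 608 to 620. Over the 77 genes other than Etv5 that were lower in Etv5 knockdown with the control at the Bcl6b knockdown level, the median position of the arrays on the scale from Bcl6b knockdown (0) to Etv5 knockdown (1) was 1.08, 1.13, 0.62 and 1.21 for replicates 1 to 4. Replicate 3 was the Etv5 knockdown array nearest to the Bcl6b knockdown mean in 55 of the 77 genes (71.4%). Over all 11163 tested genes it was nearest in 25.4%.

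Among the 59 higher genes with the control at the Bcl6b knockdown level, the medians were 1.08, 1.08, 0.88 and 0.96, and replicate 3 was nearest in 37.3%. Among the 112 genes with Bcl6b knockdown set apart as low they were 1.11, 0.95, 0.89 and 1.03, and replicate 3 was nearest in 38.4% and replicate 2 in 34.8%, the latter being nearest in 34.0% of all tested genes. The genes were selected on these arrays, so these values describe them and carry no test. The 3' minus 5' signal of Actb lay between 0.65 and 0.73 on the 4 Etv5 knockdown arrays and was lowest on replicate 3. Without replicate 3, 484 genes were called.

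**Figure D5:**
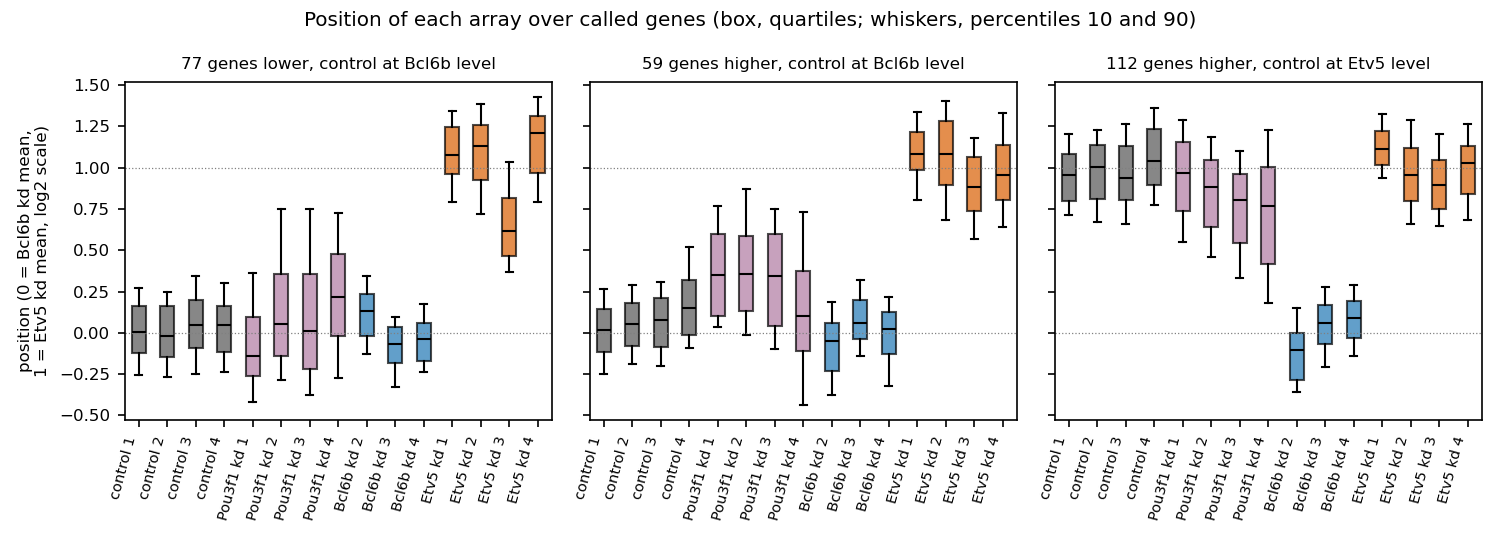
Position of each array on the log2 scale from the Bcl6b knockdown mean (0) to the Etv5 knockdown mean (1), over 77 lower and 59 higher genes with the control at the Bcl6b knockdown level and 112 genes with the control at the Etv5 knockdown level; boxes are quartiles and whiskers the percentiles 10 and 90 over genes. In the left panel Etv5 knockdown replicate 3 has a median of 0.62, and the other Etv5 knockdown arrays have medians of 1.08 to 1.21.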

How the data were processed

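Biotin-labelled cDNA of 16 samples was read on Affymetrix mouse arrays, per the labels. The authors deposited 1 intensity value per probe set and array, on a linear scale between 1.66 and 71511. GCRMA, MAS5, Partek 6.4 and Affymetrix Expression Console 1.1 appear in the submitters' processing notes without their role. The number of arrays limits the precision. Of 45037 probe sets other than controls, the 34945 paired with 1 gene were named, and each of 18193 genes was represented by its brightest probe set by mean log2 intensity. A gene was tested if at least 3 of 15 arrays lay above their median, which left 11163. log2(intensity + 1), which understates differences of dim genes, was fitted with limma 3.58.1 in R 4.3.3 (lmFit, eBayes with trend; 4 groups, no covariates, Bcl6b knockdown replicate 1 left out), with two-sided p-values adjusted by Benjamini and Hochberg's method over the tested genes. Values of further probe sets of a gene, with their adjusted p-values, come from a fit of all 45037 probe sets other than controls, dim ones included. Same-numbered Etv5 and Bcl6b knockdown arrays had correlated deviations of 0.32, 0.16 and 0.10 (replicates 2, 3 and 4), the last under 0.1, so numbers were not taken as pairs.

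The comparison, the marker genes and the 25 gene lists (473 genes, 377 tested, 62 called) were chosen with earlier results of these data known. Genes named were the targets, Lhx1 and Tnfrsf12a, the 15 largest called differences in each direction without overlap (clone names left out), and up to 4 called members of a list or, with none called, the 2 of smallest p. Other genes were chosen after their values were seen. Alternatives were other scalings, pseudocounts, filters and probe set rules, array weights, fits without the trend or of the compared groups alone, the replicate number as a block, and each array left out. Promoters of GRCm38.p6 came from RefSeq, matched by symbol. The fit was tested on simulated data. Plots used matplotlib 3.10.9 (Python 3.11.15).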

Additional observations from a re-analysis of the deposited data

Results flagged for a closer look

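The Etv5 knockdown and control groups, of 4 arrays each, were screened, and the Bcl6b knockdown and Pou3f1 knockdown groups were not. An array was picked out where its gap to the nearest other array exceeded Dixon's critical share of the group's range. Chance does so in about 1 in 20 groups; 16 of 160 groups, over 80 named genes, were picked out, 6 of them for Etv5 knockdown replicate 3. That array read 1676 for Etv5, where the other arrays of its group read 898 to 912. It also read 899 for Bcl6b (others 608 to 620), 174 for Plvap (80.8 to 87.2), 4102 for Nefm (2923 to 2992) and 1917 for Pmaip1 (1512 to 1580), and a low 1592 for Eda2r (1777 to 1800). In each of these genes but Bcl6b, whose mean was about the same in both groups, it lay nearer to the Bcl6b knockdown mean than the other Etv5 knockdown arrays did. Its log2 3' minus 5' signal of Actb, 0.65, was the lowest of its group (others 0.66 to 0.73). The part of target level, RNA quality or 1 array in these readings was not tested.

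Other Etv5 knockdown arrays stood apart in single genes. Replicate 2 read 25.6 for Sgip1 (others 8.59 to 10.5) and 1212 for Ndrg1 (1061 to 1076). Replicate 1 read 8270 for Dmrt1 (7510 to 7570) and 417 for Hif3a (299 to 312), and replicate 4 read 3370 for Flna (3198 to 3211). Among control arrays, replicate 1 read 9.34 for Epsti1 (13.4 to 13.8), replicate 2 read 4991 for Nefm (4635 to 4676), and replicate 4 read 4255 for Fdft1 (3835 to 3907), 26.2 for Fbxo2 (17.9 to 19.2) and 10.5 for Mycl (11.2 to 11.3).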

How the results depend on the processing

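The 505 calls of Etv5 against Bcl6b knockdown became 166 with Bcl6b knockdown replicate 1, 266 with only the groups compared in the fit and 1031 with all 16 arrays and array weights, and 259 to 531 with 1 array left out. With the replicate number as a block there were 419; Bcl6b knockdown replicate 4 correlated best with Etv5 knockdown replicate 1 (0.12), not with its own number, and the block is a fit by number only. Other scalings, pseudocounts, filters and probe set rules gave 356 to 561. Etv5 knockdown against control had 1069 calls (512 higher, 557 lower), 231 with Bcl6b knockdown replicate 1, 1657 with array weights and 702 to 1125 with 1 array left out. Bcl6b knockdown against control had 1219 (455 higher, 764 lower), 358, 2080 and 539 to 968. Under median centring the share of higher calls went from 47.9% to 60.5% (683 higher, 445 lower) and from 37.3% to 57.6% (640 and 472). Of 68 called named genes 29 passed under every setting in which they were tested, and 0 changed direction. The filter at a mean log2 of 5 left 61 of the 68 tested, and the mean over probe sets left 60. Without any 1 array of Bcl6b knockdown 67 were tested. The call was lost in 28 with Bcl6b knockdown replicate 1 and in 21 with only the groups compared in the fit. It was lost in 11 with no filter, 9 with no intensity trend, 8 of 60 with the mean over probe sets and 7 with the replicate block. Under the other settings 0 to 4 calls were lost, and 4 to 20 with 1 array left out. Uncalled genes near 0 changed sign: with Bcl6b knockdown replicate 1 Bub1 (0.00122), Sox9 (0.0878), Cyp11a1 (0.0415), Pou3f1 (-0.0335), Clu (-0.137) and Fdft1 (-0.0664); with array weights Clu (-0.0122); Pou3f1 with the replicate block (-0.00799), median centring (-0.0109) and quantile normalization (-0.00558); with the mean over probe sets Sox9 (0.00929) and Cyp11a1 (0.0451); and with 1 array left out Bcl6b (-0.191 to 0.0303), Pou3f1 (-0.0453 to 0.0771), Clu (-0.00294 to 0.0599) and Sox9 (-0.0984 to 0.00121). The cause of these changes was not tested. Signal near background limits genes that read under the array medians.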
